A study of Arabidopsis thaliana with 6 samples.

Results

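The genes described here are those of mitosis, cyclins and cytokinesis that were listed as changed in whole Arabidopsis thaliana seedlings of a dme mutant. They were all rows of the authors' deposited table whose description holds kinesin, microtubule, spindle, mitotic, cytokinesis, KIP-related or the whole word cyclin. The rule also names 3 genes by locus code (HINKEL, CYCB1;3 and KRP4), whose descriptions already hold such words. It gave 39 of 5322 rows. The seedlings were of the Ler accession, grown on MS plates and taken at 7 days after germination. Wild type (WT, 3 libraries) was compared with plants whose genotype is given as dme/- (3 libraries), and no label gives the allele, whether the plants were homozygous, or whether libraries are independent cultures. The p-values therefore reflect only how far these samples differ from each other, possibly for technical reasons. DME, the gene mutated here, codes for an enzyme that cuts methylated cytosine out of DNA. Its transcript stood at -1.55 as a log2 change (adjusted p = 4.88e-17, the authors' deposited table). Every row of that table carries the gene's mean normalized count across the libraries of both genotypes, its log2 change and its adjusted p. Rows are limited to changes of 2-fold or more with adjusted p below 0.05. Values of single libraries are not part of it, so neither the spread within a genotype nor overlap between the genotypes can be stated, and the depth is unknown. The table's name was taken to mean that changes are dme relative to WT, and each genotype's mean was computed from the mean and the fold and is called implied. The error given with a log2 change is an upper bound on its standard error, which assumes that the authors' p came from a Wald test. In whole seedlings more dividing cells and more RNA per dividing cell cannot be told apart.

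Cyclins are the regulatory partners of cyclin-dependent kinases (CDKs). In plants D-type cyclins act mainly at the entry into S phase, A-type cyclins from S phase to mitosis and B-type cyclins at mitosis, while KIP-related proteins (KRPs) inhibit the kinases. Kinesins are motors that move along microtubules. In dividing plant cells they organise the spindle and then the phragmoplast, the microtubule array that guides the new cell plate. In seedlings these genes are used mostly in the root and shoot meristems and in young organs. Many genes of mitosis and cytokinesis carry upstream the mitosis-specific activator element, which is bound by MYB transcription factors with 3 repeats (MYB3R).

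The core of that element, AACGG, was searched on both strands in the 250 bases before the annotated start of each member, on the RefSeq annotation of assembly TAIR10.1 of the Columbia accession. The windows below are those of the 5 higher members with the smallest adjusted p that hold the core, of CYCB1;2, added afterwards because it has the most matches, and of KRP4, a lower member without a match. They are ATK4 (chr5:9497689-9497938, plus strand), CYCA1;2 (chr1:29084286-29084535, minus strand), CYCB1;3 (chr3:3627274-3627523, minus strand), ARK2 (chr1:325066-325315, plus strand), HINKEL (chr1:6324379-6324628, minus strand), CYCB1;2 (chr5:1861704-1861953, minus strand) and KRP4 (chr2:13873112-13873361, plus strand), all in TAIR10.1 coordinates. Each is written from 5′ to 3′ on the strand of its gene and ends at the base before the annotated start, and capitals mark the core or its reverse complement CCGTT.
ATK4: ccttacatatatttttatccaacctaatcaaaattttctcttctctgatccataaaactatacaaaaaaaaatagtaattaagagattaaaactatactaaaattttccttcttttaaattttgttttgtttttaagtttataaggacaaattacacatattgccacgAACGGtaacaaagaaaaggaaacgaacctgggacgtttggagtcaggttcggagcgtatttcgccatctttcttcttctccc
CYCA1;2: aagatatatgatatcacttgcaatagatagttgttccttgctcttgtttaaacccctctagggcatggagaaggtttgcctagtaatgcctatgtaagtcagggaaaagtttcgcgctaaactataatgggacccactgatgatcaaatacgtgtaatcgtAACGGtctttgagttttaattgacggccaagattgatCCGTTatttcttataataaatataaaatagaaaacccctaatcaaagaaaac
CYCB1;3: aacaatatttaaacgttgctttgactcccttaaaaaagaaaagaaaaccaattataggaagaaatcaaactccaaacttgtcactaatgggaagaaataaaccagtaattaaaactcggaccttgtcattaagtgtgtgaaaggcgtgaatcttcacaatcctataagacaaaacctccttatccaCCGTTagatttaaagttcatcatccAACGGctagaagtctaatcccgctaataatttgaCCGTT
ARK2: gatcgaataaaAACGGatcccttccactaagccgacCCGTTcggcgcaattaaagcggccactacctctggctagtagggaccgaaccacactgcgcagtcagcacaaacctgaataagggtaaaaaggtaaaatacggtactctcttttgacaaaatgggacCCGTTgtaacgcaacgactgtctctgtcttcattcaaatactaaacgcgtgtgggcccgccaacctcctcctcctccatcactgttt
HINKEL: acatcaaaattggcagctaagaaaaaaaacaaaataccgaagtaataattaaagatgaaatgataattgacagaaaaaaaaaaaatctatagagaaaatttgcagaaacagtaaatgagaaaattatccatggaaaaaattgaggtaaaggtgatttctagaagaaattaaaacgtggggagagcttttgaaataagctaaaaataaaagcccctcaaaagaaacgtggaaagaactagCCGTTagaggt
CYCB1;2: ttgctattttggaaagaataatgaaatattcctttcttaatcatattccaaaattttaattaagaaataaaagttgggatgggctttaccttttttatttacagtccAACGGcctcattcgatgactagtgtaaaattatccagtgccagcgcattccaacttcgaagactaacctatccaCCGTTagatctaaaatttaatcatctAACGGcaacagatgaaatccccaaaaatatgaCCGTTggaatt
KRP4: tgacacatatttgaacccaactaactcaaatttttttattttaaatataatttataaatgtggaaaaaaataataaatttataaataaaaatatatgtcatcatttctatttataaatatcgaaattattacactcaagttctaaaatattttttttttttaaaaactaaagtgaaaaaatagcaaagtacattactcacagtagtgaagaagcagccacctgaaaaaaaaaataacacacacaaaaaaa

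Of the 39 members, 36 were higher in dme and 3 were lower, by the sign given in the authors' deposited table. The higher ones were 92.3% of the members, beside 72.8% higher and 27.2% lower among all 5311 measurements listed. All 13 kinesins, all 5 other microtubule proteins, 16 of 18 cyclins and CDKs and 2 of 3 CDK inhibitors were higher. Which kinesins are members depends on the wording of the descriptions. Of 8 further genes whose longer annotation text names microtubule motor activity, 6 were higher and 2 lower. The 3 lower members were the CDK inhibitor KRP4, the D-type cyclin CYCD3;1 and the P-type cyclin CYCP2;1. The rises were moderate: the 35 higher members that had reads in WT as well as dme had a median log2 change of 1.71, with a range from 1.01 to 3.57, and 7 of them (20.0%) rose at least 4-fold. For the 3632 such genes among all listed higher ones, the median was 1.98, and 49.6% rose at least 4-fold. The members were chosen from a table of changed genes, so that their number says nothing about how many genes of cell division changed. The balance of higher and lower genes rests on the authors' scaling of the libraries, which could not be checked here.

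**Figure D1:**
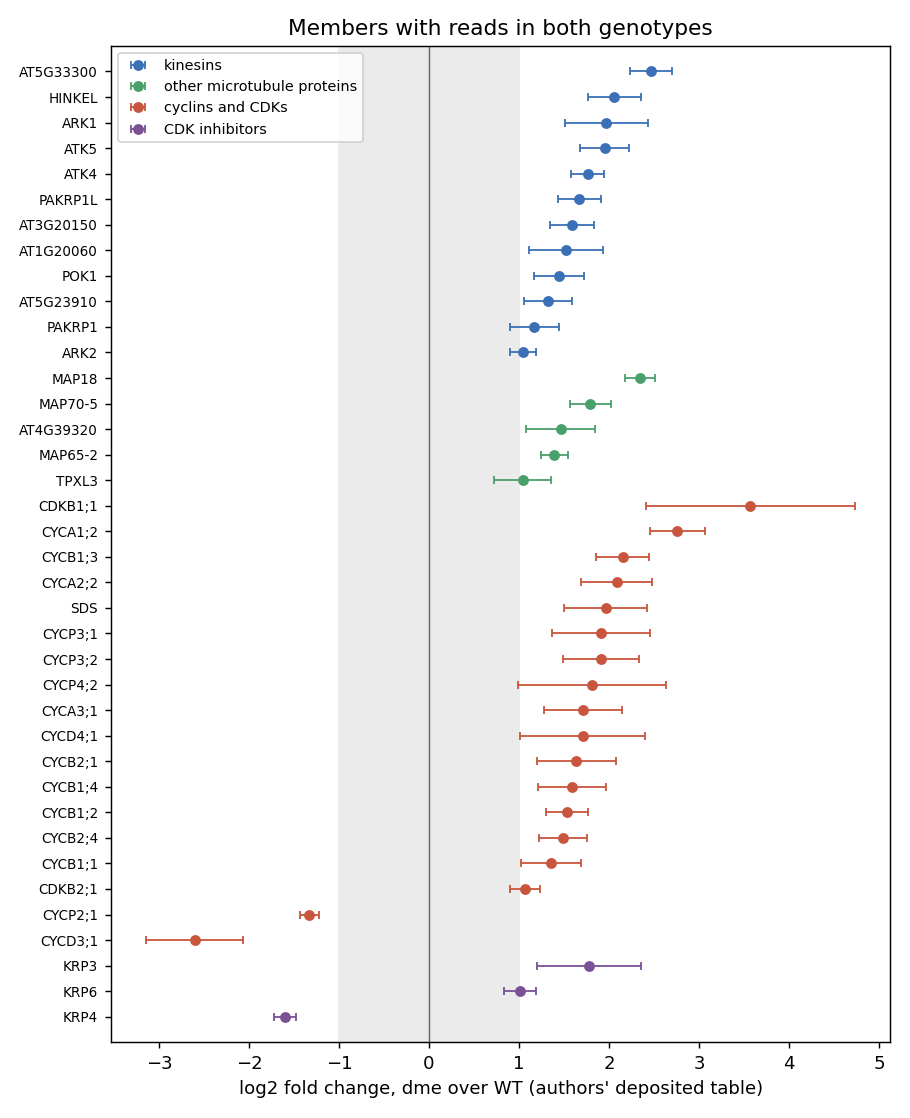
Log2 change of dme over WT in the authors' deposited table (x axis) for the 38 members with reads in both genotypes, grouped by role. Bars are the upper bound on the standard error, the grey band holds changes under 2-fold, and only KRP4, CYCP2;1 and CYCD3;1 lie to the left of it.

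Of the 10 B-type cyclins named in the annotation, which drive cells through mitosis, 6 were listed (60.0%) and all 6 were higher. Of all annotated protein-coding genes 18.5% were listed, and since 72.8% of all listed measurements were higher, a shared direction in a few listed genes is not particular to them. CYCB1;3 rose from an implied WT mean of 36.7 to 163.2 normalized counts, with a log2 change of 2.15 (bound on the standard error 0.29, adjusted p = 2.46e-13, the authors' deposited table). CYCB1;2 rose from an implied 175.9 to 508.8 normalized counts, with a log2 change of 1.53 (bound 0.23, adjusted p = 4.73e-11, the authors' deposited table). CYCB1;1, whose promoter is widely used as a reporter of cells at the entry into mitosis, rose from an implied 55.2 to 140.8 normalized counts, by a log2 change of 1.35 (bound 0.33, adjusted p = 4.46e-05, the authors' deposited table). CYCB1;4, CYCB2;1 and CYCB2;4 stood at 1.59, 1.64 and 1.49 (log2, the authors' deposited table). The 6 genes thus lay close together, between 1.35 and 2.15, and differences among them of the size of their bounds cannot be read as differences. Per kb of exon, the implied dme mean was highest for CYCB1;2, at 278.6 normalized counts per kb, and lowest for CYCB2;1, at 51.7, with CYCB2;4, CYCB1;4, CYCB1;3 and CYCB1;1 between 120.4 and 86.4. CYCB1;2 was the 1 member with a stretch of at least 200 bases that matches another place in the genome at 95% identity or more (210 bases), and it was also the 1 member within 2 Mb of DME. The other B-type cyclins, CYCB1;5, CYCB2;2, CYCB2;3 and CYCB3;1, were not listed.

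Of 10 A-type cyclins 3 were listed (30.0%, beside 18.5% of all annotated genes), all higher, beside 72.8% higher among all listed measurements. CYCA1;2, also called TAM and known for its part in meiosis, rose from an implied 41.6 to 281.1 normalized counts, by a log2 change of 2.76 (bound 0.31, adjusted p = 2.13e-19, the authors' deposited table). CYCA2;2 rose by 2.09 (bound 0.39) and CYCA3;1 by 1.71 (bound 0.43) (log2, the authors' deposited table). SDS, a cyclin-like gene known from meiosis, was higher as well, with a log2 change of 1.96 (bound 0.46, adjusted p = 2.10e-05, the authors' deposited table), with implied means of 16.9 in WT and 65.6 in dme. CYCA1;2 and SDS, both known from meiosis, were therefore among the higher cyclins of whole seedlings.

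The partner kinases of the B class, plant-specific CDKs of the G2 to mitosis step, were listed with 1 gene of each of their subgroups. CDKB2;1 rose from an implied 340.4 to 713.6 normalized counts, a log2 change of 1.07 (bound 0.17, adjusted p = 3.05e-10, the authors' deposited table). CDKB1;1 had the largest fold of the members, 3.57 on the log2 scale (bound 1.16, adjusted p = 0.00213, the authors' deposited table), but its implied mean was only 1.71 normalized counts in WT. Its size therefore rests on few reads. CDKB1;2, CDKB2;2 and CDKA;1, the main CDK of the plant cell cycle, were not listed.

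Of 10 D-type cyclins, which link growth signals to S phase, 2 were listed, 1 higher and 1 lower. That share (20.0%) is near the 18.5% listed among all annotated protein-coding genes, so nothing is read from it about the family. CYCD3;1, known to respond to cytokinin, had a log2 change of -2.60 (bound 0.54, adjusted p = 1.29e-06, the authors' deposited table), with implied means of 259.5 in WT and 42.7 normalized counts in dme. CYCD4;1 had a log2 change of 1.71 (bound 0.70, adjusted p = 0.0140, the authors' deposited table), with an implied rise from 20.9 to 68.3 normalized counts. CYCD3;1 thus had the larger WT mean and the opposite sign. Its annotated span overlaps that of AT4G34150 on the same strand, which the authors' deposited table also holds, with a log2 change of 3.93 and a mean of 3153 normalized counts. How reads were assigned within such a pair is not stated in the sources.

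P-type cyclins resemble the yeast cyclin Pho80 and are less well known in plants. Of 7 in the annotation 4 were listed (57.1%, beside 18.5% of all annotated protein-coding genes). Of these, 3 were higher and 1 lower, beside 72.8% higher among all listed measurements. CYCP2;1 was the most abundant cyclin among the members per kb of exon in either genotype, and fell by a log2 change of -1.33 (bound 0.11, adjusted p = 3.88e-36, the authors' deposited table), from an implied 2770 to 1103 normalized counts. CYCP3;1, CYCP3;2 and CYCP4;2 were higher, at 1.91, 1.91 and 1.81 (log2, the authors' deposited table). Their implied WT means were 19.5, 23.3 and 6.56 normalized counts, far below that of CYCP2;1, so the summed implied level of the 4 genes was lower in dme (1286 against 2820 normalized counts in WT) although 3 of 4 rose.

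The CDK inhibitors of the KRP family also held both directions. Of 7 KRP genes 3 were listed (42.9%, beside 18.5% of all annotated protein-coding genes). Of these, 2 were higher and 1 lower, beside 72.8% higher among all listed measurements. KRP4 fell by a log2 change of -1.60 (bound 0.13, adjusted p = 1.37e-36, the authors' deposited table), from an implied 2104 to 694.8 normalized counts. KRP6 rose by 1.01 (bound 0.18, adjusted p = 2.69e-08, the authors' deposited table), from an implied 210.1 to 423.5 normalized counts, and KRP3 by 1.78 (bound 0.58, adjusted p = 0.00218), from an implied 19.2 to 65.7. KRP4 was the most abundant of the 3 per kb of exon in WT, at an implied 879.8 normalized counts per kb against 138.3 for KRP6 and 16.0 for KRP3. In dme KRP4 and KRP6 stood close to each other, at 290.6 and 278.8 normalized counts per kb. The other 4 KRP genes, KRP1, KRP2, KRP5 and KRP7, were not listed.

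**Figure D2:**
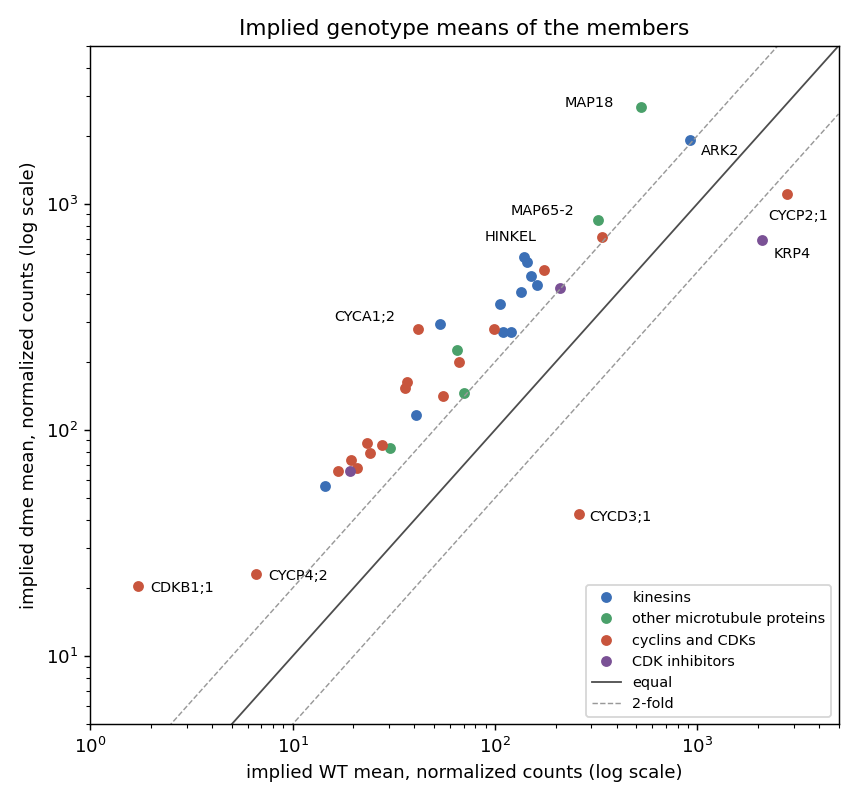
Implied means of the 38 members with reads in both genotypes, in normalized counts on log axes, WT on the x axis and dme on the y axis. The solid line is equality and the dashed lines are 2-fold changes. KRP4, CYCP2;1 and CYCD3;1 lie below the lines, and the members at the lower left, such as CDKB1;1 at an implied 1.71 in WT, rest on few reads.

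All 4 kinesins of cytokinesis among the members rose, beside 72.8% higher among all listed measurements. TES and POK2, kinesins of cytokinesis on the core list described further on, were not listed. HINKEL, the kinesin also called NACK1, which activates a MAP kinase cascade that lets the phragmoplast expand, rose from an implied 139.5 to 582.0 normalized counts, by a log2 change of 2.06 (bound 0.29, adjusted p = 1.79e-12, the authors' deposited table). PAKRP1L and PAKRP1, kinesin-12 motors of the phragmoplast midline, rose by 1.67 (bound 0.24) and 1.17 (bound 0.27) (log2, the authors' deposited table). POK1, which helps to keep the position of the division plane, rose by 1.45 (bound 0.28, adjusted p = 1.42e-07, the authors' deposited table). Summed over these 4 genes the implied level went from 572.6 to 1775 normalized counts. HINKEL had the largest rise of the 4 and PAKRP1 the smallest.

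Of the other kinesins, ATK5, a minus-end directed motor of the spindle, rose from an implied 143.8 to 555.6 normalized counts, by a log2 change of 1.95 (bound 0.28, adjusted p = 1.81e-12, the authors' deposited table). ATK4, a gene of the same kinesin class, rose by 1.76 (bound 0.19, adjusted p = 3.36e-21, the authors' deposited table). The gene with the largest fold of the group was AT5G33300, which the table only describes as related to a chromosome-associated kinesin, at 2.47 on the log2 scale (bound 0.23, adjusted p = 1.78e-26, the authors' deposited table). ARK2, 1 of the armadillo repeat kinesins, was the most abundant kinesin per kb of exon in both genotypes and had the smallest rise, 1.05 on the log2 scale (bound 0.15, adjusted p = 1.19e-12, the authors' deposited table). ARK1, which is needed for the shape of root hairs, rose by 1.97 (bound 0.46, adjusted p = 2.02e-05, the authors' deposited table), from an implied 14.4 to 56.5 normalized counts. AT3G20150, AT5G23910 and AT1G20060, kinesin motor genes without a symbol in the table, stood at 1.59, 1.32 and 1.52 (log2, the authors' deposited table). AT4G24170 has in the authors' deposited table a mean of 3.06 normalized counts with adjusted p = 0.0247, and its fold had the fixed relation to the mean that arises when 1 genotype has no reads, so no fold is given. It counts among the higher genes only by its sign.

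The 5 other microtubule proteins include genes outside cell division. MAP18, a microtubule-destabilising protein known for directional cell growth, had the smallest adjusted p of the members (1.85e-45) and rose from an implied 526.5 to 2676 normalized counts, by a log2 change of 2.35 (bound 0.17, the authors' deposited table). MAP65-2, which bundles microtubules, rose by 1.39 (bound 0.15, adjusted p = 1.08e-21) and MAP70-5, known from wall thickening in xylem, by 1.79 (bound 0.23, adjusted p = 4.46e-15) (log2, the authors' deposited table). TPXL3, a relative of the spindle protein TPX2, rose by 1.04 (bound 0.32, adjusted p = 0.00108) and AT4G39320 by 1.46 (bound 0.38, adjusted p = 0.000141, the authors' deposited table). MAP18 and MAP70-5 meet the words of the rule but are not known chiefly as genes of mitosis.

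The share of the annotation that was listed was examined because the members themselves were all listed. The words of the rule, applied to product names in the RefSeq annotation, found 192 protein-coding genes, of which 50 were listed (26.0%), 43 higher and 7 lower. All 39 members, 36 higher and 3 lower, are among these 50, so the directions are mostly those of the members themselves. The listed genes of this search that are not members did not repeat that balance. They hold more lower genes than the members do, and their higher share is below the 72.8% among all listed measurements. The 18.5% listed among all 27550 annotated protein-coding genes divided into 13.7% higher and 4.84% lower. Some of them may never have entered the authors' test. A list of 124 core genes of the cell cycle, spindle and phragmoplast, which shares 22 listed genes with the members, had 43 higher and 2 lower genes (36.3% listed), while 79 were not listed. Without the members, 23 of its 102 genes were listed, beside 18.5% of all annotated protein-coding genes. All 23 were higher, beside 72.8% higher among all listed measurements. The 22 members taken out were all listed by the rule, so their removal itself lowers the listed share of the rest. Among them 22 with reads in both genotypes had a median log2 change of 1.54. The list was written with earlier results of these data known.

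**Figure D3:**
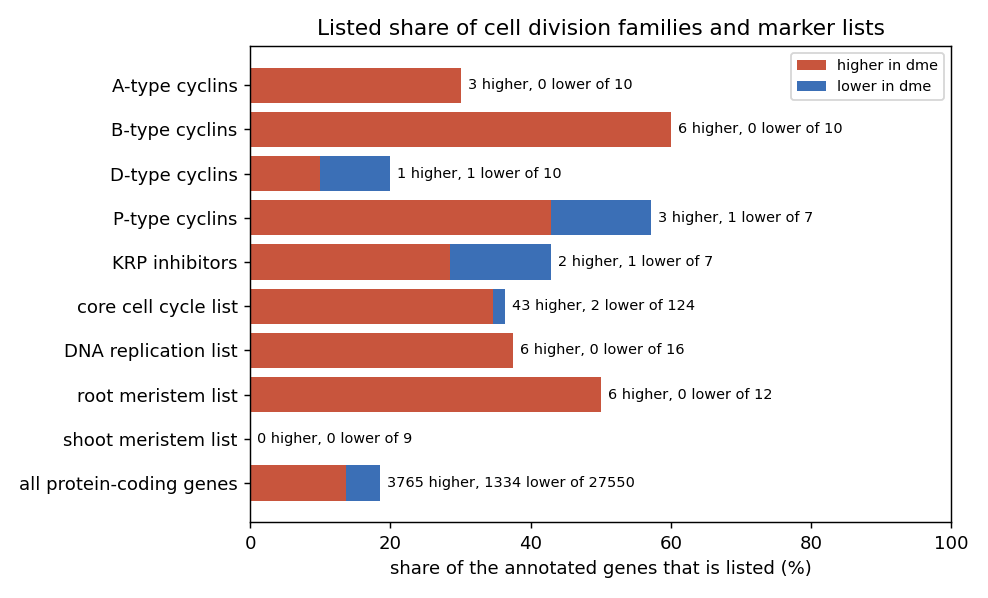
Share of the genes of each family or list that was listed in the authors' deposited table (x axis, percent), split into higher (red) and lower (blue) in dme. B-type cyclins reach 6 of 10 with no lower gene, D-type cyclins, P-type cyclins and KRP inhibitors hold both directions, and none of the 9 shoot meristem genes was listed.

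The MAP kinase cascade that acts with HINKEL in cytokinesis was partly listed. MKK6, its MAP kinase kinase, rose from an implied 41.9 to 612.0 normalized counts, by a log2 change of 3.87 (adjusted p = 6.41e-65, the authors' deposited table), the smallest adjusted p on the list. The kinases upstream of it, ANP3 and ANP2, rose by 1.99 and 1.79 (log2, the authors' deposited table), ANP2 named after its value was seen. ANP1 and MPK4, which acts downstream of MKK6, were not listed.

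The other higher genes of the core list with the smallest adjusted p hold several roles, from the spindle and the cell plate to CDK regulators and a transcription factor. The spindle assembly genes TPX2 and AUR1, an Aurora kinase, rose by 1.49 and 1.57 (log2, the authors' deposited table). BUBR1 and MAD2 of the spindle checkpoint rose by 1.68 and 1.76 (log2, the authors' deposited table). AT2G36200, a kinesin of the class that slides spindle microtubules apart, rose by 1.51 in the authors' deposited table, and EB1B, which binds growing microtubule ends, by 1.72. CSLD5, a cellulose synthase-like enzyme of the cell plate, rose by 1.45, and CKS2, a small CDK-binding protein, by 1.34 (log2, the authors' deposited table). SMR6, of a second family of CDK inhibitors, rose by 1.97 in the authors' deposited table. MYB3R4, an activator of genes with the mitosis-specific activator element, rose from an implied 110.2 to 365.2 normalized counts, by a log2 change of 1.73 (bound 0.30, adjusted p = 5.62e-09, the authors' deposited table). The other MYB3R genes on the list, MYB3R1, MYB3R3 and MYB3R5, were not listed.

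Genes of DNA replication and of meristems were set beside these, and their counts stand against 18.5% listed among all annotated genes and 72.8% higher among all listed measurements. Of 16 replication genes 6 were listed (37.5%), all higher, from 1.02 (MCM4) to 1.72 (PCNA2) (log2, the authors' deposited table). Of 12 root meristem genes 6 were listed, all higher. The summed implied level of these 6 alone was 211.7 normalized counts in WT and 1856 in dme, mostly that of the auxin carrier gene PIN2. PLT1 and PLT2, which keep root stem cells, rose by 2.57 and 2.04, and WOX5, of the quiescent centre, by 2.08 (log2, the authors' deposited table), WOX5 with only 10.8 normalized counts as its mean. The other root meristem genes, PLT3, SCR, SHR, JKD, UPB1 and FEZ, were not listed. Of 9 shoot meristem genes none was listed. The part of root meristem cells in the levels of the mitotic genes was not tested.

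Matches of the activator core were counted in all upstream windows of 250 bases. Of the 36 higher members 16 (44.4%) held at least 1 match and 6 (16.7%) at least 3, against 20.6% and 0.736% of the windows of all 27443 nuclear protein-coding genes. Among all listed higher genes 756 of 3762 windows held at least 1 match and 41 (1.09%) at least 3. Of the 6 B-type cyclins 4 held at least 3 matches each (CYCB1;1, CYCB1;2, CYCB1;3 and CYCB2;1), while CYCB1;4 and CYCB2;4 held none in this window. PAKRP1L and ARK2 were the other members with 3. In the windows of HINKEL, PAKRP1 and ATK4 there was 1 match each. By distance, the higher members held 7, 12, 8, 1 and 4 matches in successive steps of 50 bases away from the gene start. These were 21.9%, 37.5%, 25.0%, 3.1% and 12.5% of their matches, and over all windows the same steps held 20.6%, 23.3%, 20.8%, 17.7% and 17.5%. The 32 matches of the higher members came from only 16 genes, and 6 of these held at least 3 each. Of the 3 lower members CYCD3;1 had 1 match and KRP4 and CYCP2;1 none. Core list genes that were not listed also held matches, 27 of 79 (34.2%) at least 1, 13 (16.5%) at least 2 and 7 (8.86%) at least 3. Of the 23 core list genes that were higher and are not members, 11 (47.8%) held at least 1 match, 2 (8.70%) at least 2 and 1 (4.35%) at least 3, so at 2 or more matches they stood below the core list genes that were not listed. The E2F motif, searched as TTTCCCGC, TTTGGCGC, TTTCGCGC or TTTGCCGC on both strands, was found upstream of 2 of 36 higher members, CYCA1;2 and MAP18 (5.56%), and in 1.41% of all windows. Overlapping matches were all counted, and overlap between the 2 motifs was not removed. A match is a description of the reference sequence, not a bound site, and windows may hold parts of neighbouring genes.

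**Figure D4:**
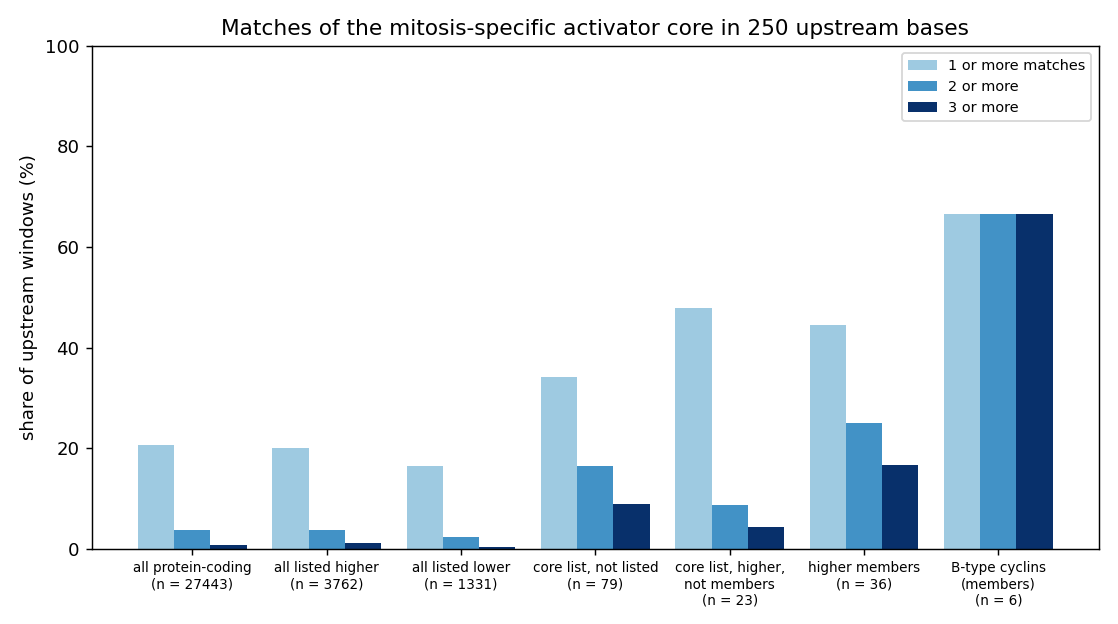
Share of 250-base upstream windows (y axis, percent) with at least 1, 2 or 3 matches of the mitosis-specific activator core on either strand, for sets of genes named on the x axis with their number of windows. The higher members stand at 44.4%, 25.0% and 16.7%, against 20.6%, 3.62% and 0.736% for all protein-coding genes, and core list genes that were not listed lie in between.

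The members lay on all 5 chromosomes, with 7, 4, 9, 9 and 10 genes on chromosomes 1 to 5, and 1 lower member each on chromosomes 2, 3 and 4. No member shared its values with another row. The annotated spans of 11 members overlap another gene, and 4 of the 12 overlapping genes, those at ATK5, MAP70-5, CYCD3;1 and CYCP4;2, were listed, all higher. Over all annotated genes 18.5% were listed, and 72.8% of all listed measurements were higher. The pair at CYCD3;1 lies on the same strand, so strand could not separate its reads. At ATK5, MAP70-5 and CYCP4;2 the overlapping genes lie on the opposite strand, with log2 changes of 2.15, 3.04 and 1.41 (the authors' deposited table). Whether counting used strand is not known, so how far the rises of these 3 members are their own cannot be told.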

How the data were processed

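RNA-seq libraries of whole seedlings were grouped by their titles (3 WT, 3 dme). Build TAIR10 is named in the submitters' processing notes, as are the tools StringTie 2.1.3, HISAT2 2.1.0 and Trimmomatic 0.36. For the counter, strand setting and comparison the tool was not given in the sources used here. Per the file headers, the authors deposited per gene the mean of the normalized counts of both genotypes (a signal with unstated scaling), a log2 fold change, a linear fold equal to 2 to that power, and an adjusted p-value with an unstated method. The table has 0 columns of values per sample, so the planned fits on counts could not be run and no test was made here. Direction and change are the authors'. Depth is unknown.

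The implied means solve the mean and the fold for 3 against 3 libraries. In 290 of the 5311 measurements (235 without WT reads, 55 without dme reads) the fold depends on the mean alone, and none is given. In 11 pairs of rows all values repeat, and each pair counts once. The standard error bound divides the size of the log2 change by the normal deviate that the adjusted p corresponds to. All 39 members and all 161 list codes matched TAIR10.1, used for names, exon lengths and upstream sequence, never with the authors' coordinates. Named were, per role, the 5 members with the smallest adjusted p, every lower member, those without reads in 1 genotype and those the rule names by code, with the others given by value, and of each list up to 12 genes by adjusted p. The members, lists and alternatives were chosen with earlier results of these data known. Computations used Python 3.11.15, numpy 2.4.6, pandas 2.3.3, scipy 1.17.1 and blastn 2.17.0. Only the arithmetic of the implied means and error bounds was run on simulated data. Those data were made under the same assumptions, so they cannot show whether the authors' values meet them.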

Additional observations from a re-analysis of the deposited data

How the results depend on the processing

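No paired analysis was possible because the deposited table holds no values per library, and for the same reason leaving out replicates, another normalization and another tool were not run. The counts of 36 higher and 3 lower members stayed within 1.5 times when the adjusted p had to be under 0.01, when the mean had to reach 50, and when repeats were included. They also did so when genes lacking reads in 1 genotype, genes found by the word microtubule alone, or the 3 genes named by code were dropped. Including repeats could not change the counts, since no member shares its values with another row. Genes lacking reads in 1 genotype (1 member) and the 3 named by code are too few to move the higher count that far. At 4-fold, fewer genes pass by construction, with 8 higher members (AT4G24170, without WT reads, among them) and 1 lower, and 9 higher and 1 lower genes of the core list. The share of members higher was 50% (2 of 4) with all log2 fold changes shifted by -0.5 and 25.0% (1 of 4) with a shift of -1, both at 4-fold, which follows from the arithmetic of the shift. For all listed genes the same shifts gave 68.2% and 36.9%. The other alternatives were chosen after seeing the data. Searching the longer annotation text too gave 60 higher and 6 lower genes, with 68 rows whose only match was the name of an F-box domain left out. Without the members the core list had 23 higher and 0 lower genes, beside 72.8% higher among all listed measurements. Their adjusted p is under 0.05 by construction, since the authors' deposited table holds only such rows. Genes with few reads, such as CDKB1;1 and CYCP4;2, have the widest error bounds.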

Other observations

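Searching the longer annotation text of the table for the same words found 27 further genes, 24 higher (88.9%) and 3 lower in dme, a group chosen after the data were seen, beside 72.8% higher among all listed measurements. Several of the higher ones were already counted with the core list, among them AT2G36200, ANP3, EB1B, TPX2, BUBR1, AUR1, CKS2 and MAD2. The group is therefore not separate from that list. Of the 27 genes, 8 are described with microtubule motor activity, and 6 of the 8 (75.0%) were higher, about the share among all listed measurements. AT3G44050 and ZCF125, both kinesin motor genes by that text, rose by 1.25 and 1.38 (log2, the authors' deposited table), and AT3G10180 by 1.65. The 2 lower motor genes were AT1G55550, at -1.29, and AT3G16120, a dynein light chain gene, at -3.83 (log2, the authors' deposited table), the latter at a mean of 27.2 normalized counts. DRP5A, a dynamin-related protein known from the cell plate, rose by 1.51, and ATNPSN11, a SNARE protein that works with the syntaxin KNOLLE in cytokinesis, by 1.46 (log2, the authors' deposited table). The third lower gene was STN7, a kinase of the thylakoid, at -1.04 in the authors' deposited table, which the text ties to the words only through a likeness of its sequence.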
